A study of Arabidopsis lyrata subsp. lyrata and Arabidopsis thaliana with 7 samples.

Results

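The outer wall of pollen, the exine, is built mainly of sporopollenin, and 10 genes with known roles in making or placing this polymer were followed through the tissues of *Arabidopsis lyrata*. They were *ACOS5* (AT1G62940), *PKSA* (AT1G02050), *PKSB* (AT4G34850), *TKPR1* (AT4G35420), *TKPR2* (AT1G68540), *CYP703A2* (AT1G01280), *CYP704B1* (AT1G69500), *MS2* (AT3G11980), *ABCG26* (AT3G13220) and *RPG1* (AT5G40260). Members were found by name, as the *A. lyrata* gene models for which the deposited annotation lists one of these *A. thaliana* genes as the ortholog. Each of the 10 genes had exactly 1 model among the 32793 models of the *A. lyrata* count table. In the whole annotation 22143 models had a listed ortholog. The same 10 genes were read from the count table of 32678 *A. thaliana* genes.

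In the anther, sporopollenin precursors are made by the tapetum, the nurse cell layer around the developing microspores, and are passed to the microspore surface while the wall is laid down. From work in *A. thaliana*, *ACOS5* activates fatty acids to fatty acyl-CoA, *PKSA* and *PKSB* extend these to polyketides, and *TKPR1* and *TKPR2* reduce the products. *CYP703A2* and *CYP704B1* hydroxylate fatty acids, and *MS2* reduces activated fatty acids to fatty alcohols. *ABCG26* is a transporter at the tapetal plasma membrane, and *RPG1*, also called SWEET8, is a sugar transporter needed for the primexine, the scaffold on which sporopollenin is deposited. Loss of several of these genes gives a thin or missing exine and male sterility.

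RNA was sequenced from 5 libraries of *A. lyrata* subsp. *lyrata* MN47, a single accession, and from 2 libraries of vegetative rosettes of *A. thaliana* Col-0. The *A. lyrata* libraries were 2 of entire vegetative rosettes, 1 of dissected shoot apices with the leaves removed, and 2 of entire inflorescences taken from the main stem. All plants grew in soil with 16 h of light at 21 degrees C and 8 h of dark and received no treatment. Rosettes and apices came from young plants and inflorescences from flowering ones, and the inflorescence libraries had the shorter reads, so that tissue, plant stage and read length cannot be told apart. The labels do not say that replicates were separate plants, so p-values measure only the spread between these libraries, which may be technical. The rosettes were described as vegetative, and whether they held early floral tissue was not tested. An inflorescence holds buds and flowers of several stages, of which the tapetum is a small part.

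Between 10556736 and 28347972 reads per library were counted in gene models, in the shoot apex and inflorescence replicate 1 respectively. Levels per library are given as reads and as CPM, reads scaled to a library of 1000000 reads counted in gene models. A floor of 3 reads per library corresponds to between 0.106 and 0.284 CPM in *A. lyrata* and to 0.188 and 0.237 CPM in *A. thaliana*. The tissues were checked by markers, and the summed level of 6 floral organ markers, among them *AP1* and *LFY*, was 1385 and 1322 CPM in the inflorescences, 1.52 CPM in the shoot apex and 4.92 and 0.525 CPM in the rosettes. The summed level of 4 shoot meristem markers, among them *STM* and *WUS*, was 145 CPM in the apex, 106 and 114 CPM in the inflorescences, and 3.88 and 0 CPM in the rosettes. In the apex *STM* and *KNAT1* made up nearly all of this sum, at 55.7 and 88.7 CPM, whereas *WUS* was at 0.189 CPM there and at 6.84 and 10.2 CPM in the inflorescences. Of the leaf markers, 4 had a model, and their sum was 31629 and 38405 CPM in the rosettes, 5210 CPM in the apex, and 1857 and 2452 CPM in the inflorescences.

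To show the letters behind the genes, the 250 bases before the annotated gene start were read from the *A. thaliana* genome (RefSeq, TAIR10.1). An *A. lyrata* genome was not used here, and these sequences are therefore those of the *A. thaliana* orthologs. Every window was searched for the E-box CANNTG, the core letters bound by basic helix-loop-helix factors such as the tapetal regulators AMS and DYT1, which reads the same on both strands, and for CCAACC, an element of the kind bound by R2R3 MYB factors, on both strands. The 2 motifs share no overlap in these windows. An E-box was found in 6 of 10 windows, beside 55.3% of the windows of 27443 *A. thaliana* protein-coding genes, and CCAACC in 0 of 10, beside 6.32%. The PKSA window, among the 6, overlaps the neighbouring gene AT1G02060, and the PKSB window overlaps AT4G34840. Shown are *ACOS5*, the first enzyme of the pathway, *MS2*, the only member that yields fatty alcohols, *ABCG26*, the export step, and *TKPR2*, the member with the highest rosette level. Capitals mark the E-boxes. The ACOS5 window is chr1:23310282-23310531 on the plus strand with an E-box 77 bases before the start, and the MS2 window is chr3:3813981-3814230 on the plus strand with E-boxes at 201 and 145 bases. ABCG26 lies on the minus strand with its window at chr3:4250704-4250953 and E-boxes at 224, 201 and 86 bases, and the TKPR2 window is chr1:25719708-25719957 on the plus strand with E-boxes at 196 and 164 bases.
ACOS5: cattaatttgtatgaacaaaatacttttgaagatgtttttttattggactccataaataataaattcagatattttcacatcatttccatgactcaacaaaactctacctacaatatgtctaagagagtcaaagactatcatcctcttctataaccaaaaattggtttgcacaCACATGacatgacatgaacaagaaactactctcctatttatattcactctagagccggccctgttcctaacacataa
MS2: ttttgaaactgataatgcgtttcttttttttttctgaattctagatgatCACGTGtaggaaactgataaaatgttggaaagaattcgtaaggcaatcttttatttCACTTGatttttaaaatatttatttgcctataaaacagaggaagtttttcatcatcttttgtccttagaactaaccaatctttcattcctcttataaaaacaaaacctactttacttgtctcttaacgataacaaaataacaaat
ABCG26: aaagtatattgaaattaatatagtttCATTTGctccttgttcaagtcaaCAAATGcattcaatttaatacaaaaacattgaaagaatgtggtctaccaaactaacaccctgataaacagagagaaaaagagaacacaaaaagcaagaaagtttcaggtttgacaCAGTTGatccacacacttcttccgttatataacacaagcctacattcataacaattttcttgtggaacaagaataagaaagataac
TKPR2: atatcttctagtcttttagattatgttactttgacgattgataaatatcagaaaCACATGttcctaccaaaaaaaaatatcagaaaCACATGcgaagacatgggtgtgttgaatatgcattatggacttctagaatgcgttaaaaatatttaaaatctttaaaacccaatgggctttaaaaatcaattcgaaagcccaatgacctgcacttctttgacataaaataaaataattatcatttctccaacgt

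The same hexamer, CACATG, was present in the ACOS5 window and at both sites of the TKPR2 window, whereas the MS2 window held the palindrome CACGTG, known as the G-box, farther from the start. These matches are a description of letters, and binding was not measured.

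All 10 genes had their highest level in the inflorescences, where no member was at 0. Together they took 1307 and 1271 CPM in the inflorescences, which is 0.131% and 0.127% of all counted reads. Their sum was 71.3 and 68.1 CPM in the rosettes and 91.8 CPM in the shoot apex. Most of the reads outside the inflorescence came from *TKPR1*, *TKPR2* and *PKSA*, and between 4 and 5 members were at 0 in each of the other 3 libraries. In bulk tissue, fewer tapetal cells and less RNA per cell cannot be told apart.

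**Figure D1:**
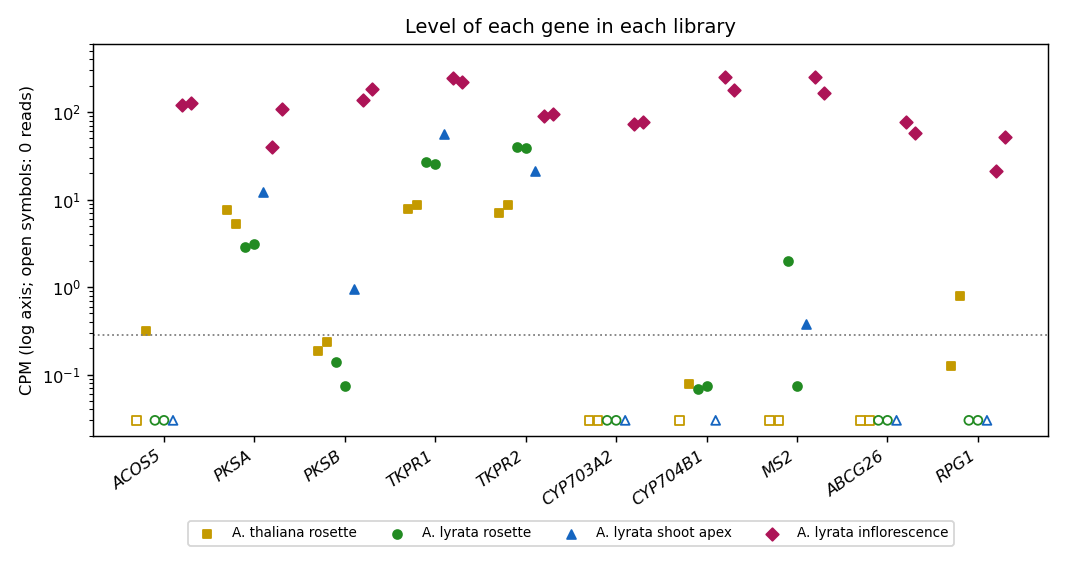
Level of each gene in each of the 7 libraries in CPM on a log axis, with open symbols at the bottom for libraries with 0 reads and a dotted line at 0.284 CPM, the highest floor of 3 reads. The inflorescence libraries lie above all others for every gene, and *TKPR1*, *TKPR2* and *PKSA* lie above the floor in every library.

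Inflorescences and rosettes were compared to ask which of the genes differ between flowering and vegetative tissue. In the quasi-likelihood fit of edgeR over 25465 models with Benjamini-Hochberg adjustment, all 10 members were higher in the inflorescence, beside 17.6% of all models that were called higher and 16.7% that were called lower. The 10 genes were chosen for their known role in the anther, and 5 of them (*ACOS5*, *CYP703A2*, *CYP704B1*, *ABCG26* and *RPG1*) reached 10 reads only in inflorescence libraries. These 5 passed the filter on low counts only through the tissue in which they were high, and had to differ. Where a tissue had no reads, the difference is given as a lower bound against the floor of 3 reads per library. Means below are CPM scaled with TMM factors, with the SD over 2 libraries.

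*ACOS5*, the acyl-CoA synthetase at the head of the pathway, had 3459 and 3341 reads in the inflorescences (122 and 128 CPM) and 0 reads in both rosettes and in the apex. Its inflorescence libraries were close to each other, at 109 ± 0.691 scaled CPM (SD, n = 2). The level was at least 383-fold higher in the inflorescence than in the rosette (edgeR adjusted p = 0.00245) and at least 508-fold higher than in the apex (edgeR adjusted p = 0.00783). Its model AL2G12630 lies at 1381577 to 1384449 on the minus strand of scaffold 2 and has 7 exons and a coding length of 1557 bp, against 1629 bp in *A. thaliana*. Both adjacent models lay on the opposite strand, at 514 and 1251 bp.

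The polyketide synthases *PKSA* and *PKSB* differed from each other in the vegetative libraries. *PKSA* gave 41 and 42 reads in rosettes, 129 in the apex, and 1137 and 2847 in inflorescences, or 2.84, 3.15, 12.2, 40.1 and 109 CPM. It was thus well above the floor in entire rosettes, and the inflorescence libraries differed from each other more than the rosettes did. The inflorescence mean was 64.7 ± 40.9 scaled CPM against 3.95 ± 0.576 in the rosettes, a 16.4-fold difference (log2 fold change 4.03 ± 0.578 SE, edgeR adjusted p = 0.0112). Without inflorescence replicate 2 the log2 fold change was 3.18 and without inflorescence replicate 1 it was 4.57, both still called.

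*PKSB* gave 2 and 1 reads in rosettes, 10 in the apex, and 3861 and 4781 in inflorescences, or 136 and 184 CPM. Reads in the rosettes did not pass the floor, and those in the apex did, at 0.947 CPM. From the pooled reads the inflorescence to rosette ratio was 982, with an exact 95% interval of 336 to 4764 for counting error only (log2 fold change 9.88 ± 0.343 SE, edgeR adjusted p = 0.00245). The coding regions of *PKSA* and *PKSB* in *A. thaliana* were 65.6% identical over 1164 aligned bases, and their longest shared run was 14 bases, shorter than a read.

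The models of this pair were compact. *PKSA* is AL1G10230, at 80916 to 82471 on the plus strand of scaffold 1, with 2 exons and 1191 bp of coding sequence. *PKSB* is AL7G16140, at 2611343 to 2612851 on the minus strand of scaffold 7, with 3 exons and 1179 bp of coding sequence. The model AL1G10220 ends 51 bp before *PKSA* on the same strand, at 1.03 and 0.766 RPKM (CPM divided by the exon length in kb) in the rosettes and 3.80 in the apex, where *PKSA* had 1.95, 2.16 and 8.39. AL7G16130, 9 bp from *PKSB* on the opposite strand, gave 76 and 6 reads in rosettes and 106 in the apex. Counting did not use strand, and the part of neighbouring transcripts in the low reads of *PKSA* and *PKSB* was not tested.

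The reductases *TKPR1* and *TKPR2* had the highest vegetative levels of the 10 genes. *TKPR1* gave 385 and 339 reads in rosettes, 600 in the apex, and 7029 and 5818 in inflorescences, or 26.7, 25.4, 56.8, 248 and 223 CPM. The tissues did not overlap, and replicates of a tissue lay close together. The difference between inflorescence and rosette was 6.03-fold, from 34.2 ± 1.34 to 206 ± 21.2 scaled CPM (log2 fold change 2.59 ± 0.171 SE, edgeR adjusted p = 0.00256).

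*TKPR2* gave 572 and 524 reads in rosettes, 226 in the apex, and 2578 and 2508 in inflorescences, or 39.6, 39.3, 21.4, 90.9 and 96.3 CPM. In rosettes it was the highest of the 10 genes, and its difference between inflorescence and rosette was the lowest. With library totals in place of TMM factors the log2 fold change was 1.25 (edgeR adjusted p = 0.00678). With TMM factors the inflorescence mean was 81.8 ± 0.932 scaled CPM against 51.9 ± 3.49 in the rosettes, a 1.58-fold difference (log2 fold change 0.66 ± 0.142 SE, edgeR adjusted p = 0.0308). The call was lost without inflorescence replicate 1 or 2, at edgeR adjusted p = 0.259 and 0.278, although the log2 fold change moved only to 0.67 and 0.64, and it was lost with the replicate number as a block, at adjusted p = 0.0654.

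*TKPR1* is AL7G15520, at 2345630 to 2347487 on the plus strand of scaffold 7, with 6 exons and 981 bp of coding sequence. *TKPR2* is AL2G26040, at 13196866 to 13198310 on the plus strand of scaffold 2, with 4 exons and 966 bp. The model AL7G15510 ends 55 bp before *TKPR1* on the same strand and had 19.3 and 13.7 RPKM in the rosettes and 22.5 in the apex, where *TKPR1* had 19.4, 18.5 and 41.4, and its part in the *TKPR1* reads was not tested. For *TKPR2* the nearest models lay 1150 and 6564 bp away, and their part in its reads was not tested either. The coding regions of both genes in *A. thaliana* were 61.7% identical over 926 aligned bases, with a longest shared run of 16 bases.

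The fatty acid hydroxylases were at or under the floor in every vegetative library. *CYP703A2*, an in-chain hydroxylase, had 2084 and 2016 reads in the inflorescences (73.5 and 77.4 CPM) and 0 in the rosettes and the apex. Its level was at least 231-fold higher in the inflorescence than in the rosette and at least 306-fold higher than in the apex (edgeR adjusted p = 0.00245 and 0.00783). *CYP704B1*, an omega-hydroxylase, had 7067 and 4603 reads in the inflorescences (249 and 177 CPM), 1 read in each rosette and 0 in the apex. The pooled ratio to the rosettes was 1990, with an exact interval of 551 to 16431 (log2 fold change 10.86 ± 0.426 SE, edgeR adjusted p = 0.00245), and the level was at least 868-fold higher than in the apex.

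The *CYP703A2* model, AL1G11130 at 405422 to 407135 on the minus strand of scaffold 1, was the odd one among the 10. The deposited annotation marks it as containing a transposable element, and its coding length of 1011 bp was 65.9% of the 1533 bp in *A. thaliana*, although its 2 exons covered 1633 bp. *CYP704B1* is AL2G27230, at 13772264 to 13774404 on the plus strand of scaffold 2, with 6 exons and 1560 bp of coding sequence against 1575 bp in *A. thaliana*. In 5 of the 10 members (*PKSB*, *TKPR1*, *TKPR2*, *MS2* and *ABCG26*) the coding length was the same in both species.

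**Figure D2:**
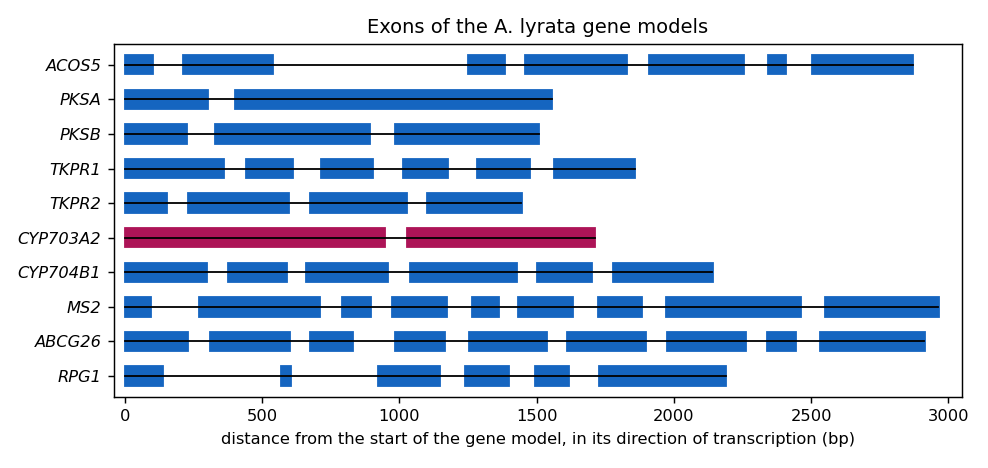
Exons of the 10 *A. lyrata* gene models as boxes, by distance in bp from the start of the model in its direction of transcription, with *CYP703A2*, the model marked as containing a transposable element, in red. All models hold 1 transcript, with between 2 exons (*PKSA*, *CYP703A2*) and 9 exons (*MS2*, *ABCG26*).

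*MS2*, the reductase that yields fatty alcohols, had 7057 and 4331 reads in the inflorescences (249 and 166 CPM), 4 in the apex, and 29 and 1 in the rosettes. The 29 reads (2.01 CPM) were all in rosette replicate 1. That library also held 62 reads of *SEP3*, 10 of *STM* and 46 of *KNAT1*, where replicate 2 held 5, 0 and 0. Of the 6 floral organ markers 3 (*AP1*, *LFY* and *AP3*) were at 0 in replicate 1, as were 2 of the 4 meristem markers (*WUS* and *CLV3*), and the part of apical or floral tissue in its *MS2* reads was not tested. From the pooled reads the inflorescence to rosette ratio was 129, with an exact interval of 90.6 to 192 (log2 fold change 7.06 ± 1.05 SE, edgeR adjusted p = 0.0123). Without rosette replicate 1 the log2 fold change was 10.70, without rosette replicate 2 it was 6.18, and the call was lost without inflorescence replicate 1 or 2 at log2 fold changes of 6.72 and 7.36 (edgeR adjusted p = 0.0732 and 0.0645). The model AL3G23210 lies at 4841299 to 4844263 on the plus strand of scaffold 3 and has 9 exons and 1851 bp of coding sequence.

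*ABCG26*, the exporter, had 2177 and 1490 reads in the inflorescences (76.8 and 57.2 CPM) and 0 in every vegetative library of *A. lyrata*. Its level was at least 206-fold higher in the inflorescence than in the rosette (edgeR adjusted p = 0.00296) and at least 273-fold higher than in the apex (edgeR adjusted p = 0.0110). The model AL3G24550 lies at 5318518 to 5321431 on the minus strand of scaffold 3, with 9 exons and 2058 bp of coding sequence. Its neighbour on the downstream side, 177 bp away on the opposite strand, had 522 and 521 reads in rosettes and 513 in the apex, where *ABCG26* had none.

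*RPG1*, the sugar transporter of the set, had 608 and 1365 reads in the inflorescences (21.4 and 52.4 CPM) and 0 in the rosettes and the apex. The inflorescence libraries were unequal, at 32.0 ± 18.2 scaled CPM, and the level was at least 112-fold higher than in the rosette (edgeR adjusted p = 0.0101) and at least 149-fold higher than in the apex (edgeR adjusted p = 0.0372). From inflorescence replicate 1 alone these bounds were 67.1 and 88.9, and from replicate 2 alone 157 and 208. Without inflorescence replicate 2 the rosette comparison was no longer called, at edgeR adjusted p = 0.0502, and DESeq2 gave adjusted p = 0.0627. The model AL7G48380 lies at 22487527 to 22489717 on the minus strand of scaffold 7, with 6 exons and 723 bp of coding sequence.

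**Figure D3:**
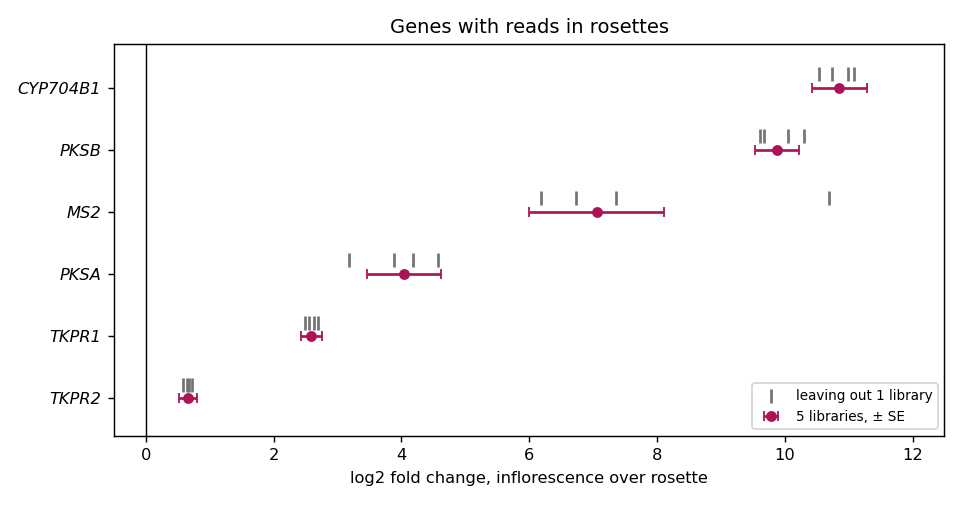
Log2 fold change of inflorescence over rosette from edgeR for the 6 members with reads in rosettes, as points with ± SE, and the values on leaving out 1 library at a time as grey ticks. *TKPR2* lies lowest at 0.66 and *CYP704B1* highest at 10.86, and the *MS2* value without rosette replicate 1 is 10.70. The other 4 members had no rosette reads and are given in the text as lower bounds.

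The shoot apex was compared with the inflorescence to ask whether the genes also stand apart from vegetative growing tissue. This comparison uses the same inflorescence libraries as the one with rosettes, and since the apex had 1 library, it was assumed to vary like the other tissues. In edgeR 9 of 10 members were higher in the inflorescence, beside 8.74% of all models called higher and 3.99% called lower. As in the comparison with rosettes, 5 of the 9 passed the filter only through the inflorescence and had to differ. *PKSB* was 194-fold higher (edgeR adjusted p = 0.00783), *TKPR1* 4.79-fold (adjusted p = 0.0122) and *TKPR2* 5.04-fold (adjusted p = 0.00908). For *MS2* the ratio of pooled reads was 638, with an exact interval of 249 to 2342 (edgeR adjusted p = 0.0413). *PKSA* was 6.99-fold higher, at 64.7 against 9.26 scaled CPM, and did not pass the test (log2 fold change 2.80 ± 0.709 SE, edgeR adjusted p = 0.0742), whereas DESeq2 gave adjusted p = 0.000997 and edgeR without rosette replicate 1 or 2 gave 0.0268 and 0.0276. Its log2 fold change was 1.89 without inflorescence replicate 2 and 3.28 without inflorescence replicate 1. With either inflorescence library left out, 1 library stood against 1 with the spread taken from the rosettes, and 0 of 10 members and 0 of all models were called.

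Between shoot apex and rosette only *TKPR2* was called, again with the spread of the single apex library taken from the other tissues. It was 3.20-fold lower in the apex, at 16.2 against 51.9 ± 3.49 scaled CPM (log2 fold change -1.68 ± 0.190 SE, edgeR adjusted p = 0.0320), so that the order of its tissues was inflorescence, rosette, apex. *TKPR1*, *PKSA* and *PKSB* had the order inflorescence, apex, rosette, although apex and rosette did not differ beyond the test. With 1 member lower and 0 higher, the background was 6.03% of all models called lower and 2.11% called higher, and at an unadjusted p under 0.05 the counts were 1 lower and 1 higher in edgeR and the same in DESeq2. The *TKPR2* call was lost without inflorescence replicate 1 or 2 (edgeR adjusted p = 0.209 and 0.211) and with the replicate block (0.0846), while the log2 fold change was -1.62, -1.62 and -1.64. In these 3 settings 0 of all models were called between apex and rosette.

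*TKPR1* was 1.26-fold higher in the apex than in the rosette (edgeR adjusted p = 0.326), *PKSA* 2.34-fold (adjusted p = 0.273), and the pooled reads of *PKSB* gave a ratio of 5.07 with an exact interval of 1.31 to 28.7 (adjusted p = 0.0709). These differences did not pass the test. With library totals in place of TMM factors, which shifted the median of all models from 0 to 0.67, *TKPR1* and *PKSB* were called higher in the apex, at log2 fold changes of 1.13 (edgeR adjusted p = 0.0286) and 3.06 (adjusted p = 0.0317). The call of these genes between apex and rosette thus depended on the scaling. So did the size of the *TKPR2* difference, at a log2 fold change of -0.88 with library totals against -1.68 with TMM factors.

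To compare genes with each other, reads were divided by exon length. The mean level in the inflorescences spanned 5.64-fold, from 172 ± 12.7 RPKM (SD, n = 2) for *TKPR1* to 30.5 ± 6.30 for *ABCG26*. In between came *PKSB* at 121 ± 25.4, *CYP704B1* at 121 ± 29.1, *MS2* at 93.9 ± 26.4, *TKPR2* at 77.0 ± 3.11, *ACOS5* at 72.6 ± 2.56, *PKSA* at 51.3 ± 33.6, *CYP703A2* at 46.2 ± 1.68 and *RPG1* at 32.1 ± 19.0 RPKM. Neighbours in this order overlapped in their library values, apart from *TKPR1* over *PKSB* (lowest 163 against highest 139 RPKM) and *TKPR2* over *ACOS5* (74.8 against 74.4 RPKM). The median of the 10 genes was 74.8 RPKM, against 7.33 RPKM over all models with reads in the inflorescences. Over all models with an exon length, with or without reads there, the members lay between the 84.5 and 98.0 percentiles. In the rosettes the order was led by *TKPR2* with 32.6 and 32.3 RPKM, ahead of *TKPR1* with 19.4 and 18.5.

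**Figure D4:**
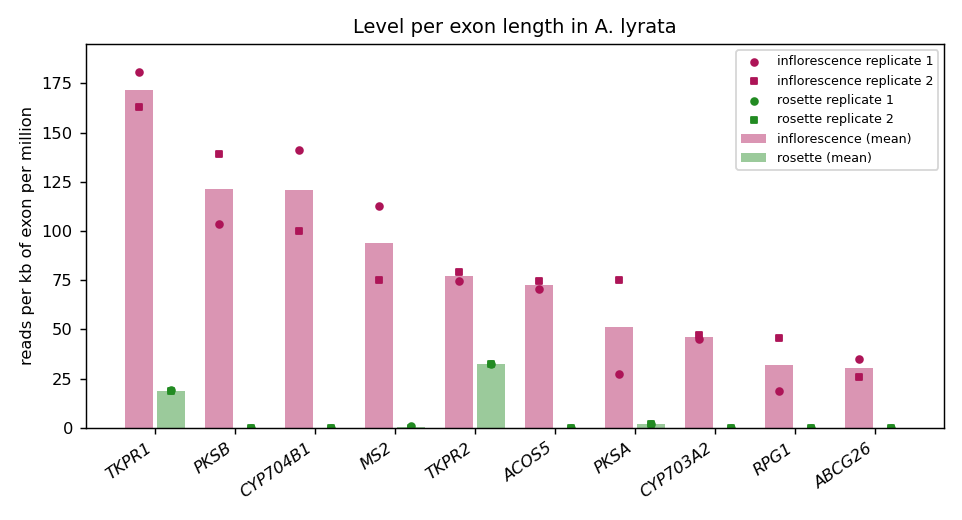
Level in RPKM, CPM divided by the exon length in kb, in inflorescence and rosette, with the mean as a bar and the 2 libraries as points, for the 10 genes in order of the inflorescence mean. *TKPR1* leads in the inflorescence at 172, and bars for the rosette are visible only for *TKPR1*, *TKPR2* and *PKSA*.

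The members did not move together between the 2 inflorescence libraries. In replicate 2 relative to replicate 1, *PKSA* was at a ratio of 2.73 (exact 95% interval 2.54 to 2.92) and *RPG1* at 2.44 (2.22 to 2.69). On the other side lay *MS2* at 0.668 (0.643 to 0.694), *CYP704B1* at 0.709 (0.683 to 0.736) and *ABCG26* at 0.745 (0.697 to 0.796). These 5 genes fell outside 0.772 to 1.52, the range that held all but the lowest and highest 5% of 21347 models with at least 100 reads. *PKSB* was at 1.35, and *TKPR1*, *ACOS5*, *CYP703A2* and *TKPR2* were between 0.901 and 1.06, near the median of all models of 1.03. The intervals cover counting error only, and with 2 libraries the difference has no test.

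Other genes of the anther showed both directions too. Over the 21347 models 60.2% were above 1. Among 12 tapetal regulators 9 were lower in replicate 2, with *TDF1* at 0.502 and *DYT1* at 0.559, early regulators of the tapetum, and *TEK* was highest at 2.03. Of 20 other pollen wall genes 10 lay above 1 and 10 below. *QRT1* and *QRT3*, needed for the separation of the pollen tetrad, were at 1.86 and 1.59, and *ABCG31* at 1.58, while *ABCG16*, *ABCG1* and *CDM1* were at 0.536, 0.623 and 0.628. The median was 1.33 over 7 mature pollen markers (0.768 to 2.37) and 0.942 over 5 floral organ markers (0.898 to 1.35). All 4 leaf markers were higher in replicate 2, with a median of 1.40 (1.12 to 1.63), and so were 3 of 3 shoot meristem markers, with a median of 1.08 (1.02 to 1.49). The part of these differences in tissue markers in the ratios of the members was not tested.

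**Figure D5:**
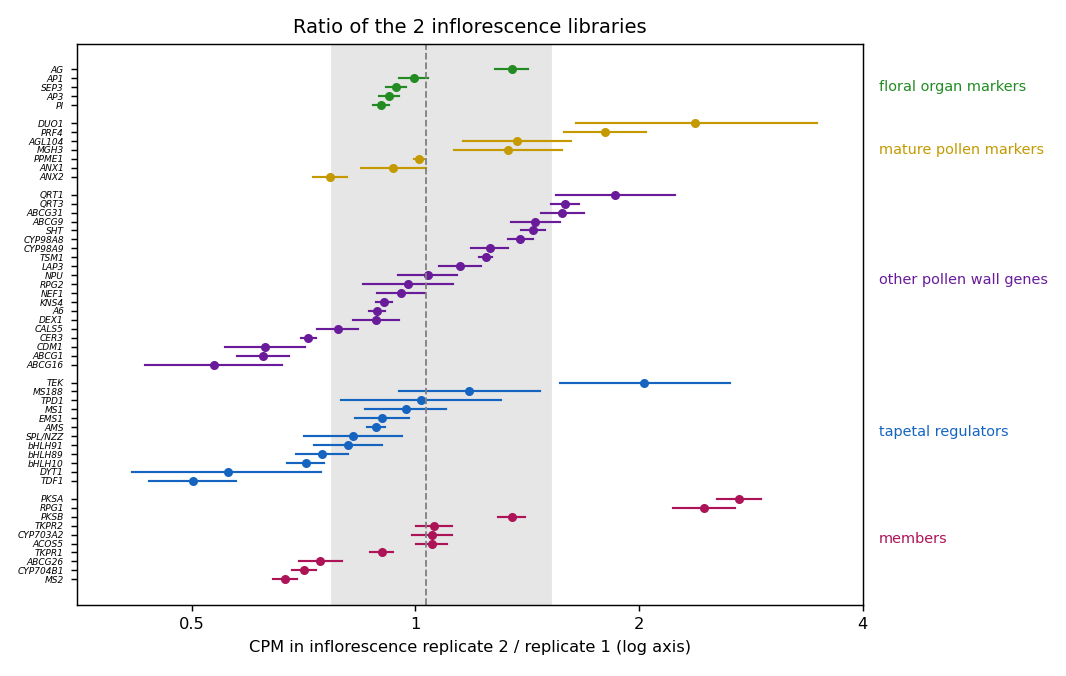
CPM in inflorescence replicate 2 over replicate 1 on a log axis, with exact 95% intervals for counting error, for the members and 4 other lists. The shaded band, 0.772 to 1.52, spans the 5th to 95th percentile of 21347 models and the dashed line is their median of 1.03. *PKSA* and *RPG1* lie to the right of the band and *ABCG26*, *CYP704B1* and *MS2* to its left.

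The regulators of the tapetum were compared between the same tissues. Of 12 regulators 9 were higher in the inflorescence than in the rosette, 1 was lower and 2 were not called, beside 17.6% and 16.7% of all models, with a median fitted log2 fold change of 7.82 against 10.37 for the members and 0.09 over all models. Of the 9 higher regulators 6 (*SPL/NZZ*, *DYT1*, *TDF1*, *AMS*, *MS188* and *bHLH91*) reached 10 reads only in inflorescence libraries and had to differ. Fitted values of genes with no rosette reads depend on the prior count, and with such genes at their lower bounds (4 in each list) the medians were 4.76 for the regulators and 7.37 for the members. *AMS*, a helix-loop-helix factor known to bind promoters of several members in *A. thaliana*, had 11151 and 9072 reads in the inflorescences and 1 read in each rosette and in the apex. *MS188*, a MYB factor known to act on *CYP703A2*, had 163 and 177 reads in the inflorescences, 2 in the apex and 0 in the rosettes. *DYT1* had 142 and 73 reads in the inflorescences and 0 elsewhere.

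Not every regulator had this pattern. *TPD1*, the ligand that sets tapetal fate, was lower in the inflorescence (log2 fold change -1.77 ± 0.411 SE, edgeR adjusted p = 0.0366). *MS1*, a PHD-finger factor of late tapetum, gave 236 and 291 reads in rosettes, 227 in the apex, and 538 and 480 in inflorescences, and did not pass (log2 fold change -0.63, edgeR adjusted p = 0.117). *TEK*, needed for the inner layer of the exine, was not called either (1.26, edgeR adjusted p = 0.104). In the rosettes of *A. thaliana*, *MS1* and *TEK* had 0 reads in each library, while *TPD1* had 348 and 255. The part of neighbouring models in the *MS1* reads of *A. lyrata* was not tested. Against the apex 7 of the 12 regulators were higher, beside 8.74% of all models. Among the 7, *SPL/NZZ*, *TDF1*, *AMS*, *MS188* and *bHLH91* passed the filter only through the inflorescence and had to differ. *DYT1* passed in the same way and was not called. Between apex and rosette 1 of 12 was higher, *bHLH10* (2.12, edgeR adjusted p = 0.0443), beside 2.11%.

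Of 20 other pollen wall genes 16 were higher in the inflorescence than in the rosette, 0 lower and 4 not called, with a median log2 fold change of 6.52, the same with 3 genes at their lower bounds. Of the 16, 8 (*CALS5*, *A6*, *KNS4*, *SHT*, *TSM1*, *ABCG16*, *ABCG9* and *QRT1*) reached 10 reads only in inflorescence libraries and had to differ. Among the higher genes were *SHT*, *TSM1*, *CYP98A8* and *CYP98A9*, which make the phenolamides of the pollen coat. *TSM1* had 16834 and 19221 reads in the inflorescences against 6 and 2 in the rosettes, and *SHT* 4784 and 6331 against 0. *KNS4*, a galactosyltransferase of the primexine, had 13758 and 11464 reads against 1 and 0. The 4 genes not called, *DEX1*, *NPU*, *NEF1* and *CER3*, had between 287 and 2759 reads in each rosette library and log2 fold changes between -0.32 and 1.33. Against the apex 14 of 20 were higher and 0 lower, beside 8.74% and 3.99% of all models. Among the 14, *CALS5*, *A6*, *KNS4*, *SHT*, *TSM1*, *ABCG9* and *QRT1* passed the filter only through the inflorescence and had to differ. *ABCG16* passed in the same way and was not called. Between apex and rosette 2 of 20 were higher, *RPG2* (5.53) and *CYP98A9* (3.33), beside 2.11%.

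Relatives of the members with roles outside the pollen wall were compared too, with 24 genes listed and 21 with a model. Between inflorescence and rosette 6 of 21 were higher, 4 lower and 11 not called, beside 17.6% and 16.7% of all models. The median log2 fold change was 0.89. Of the 6, *SWEET5* passed the filter on low counts only through the inflorescence and had to differ. *BAN* passed the filter in the same way and was not called. Beside *ACOS5*, the ligase *4CL3* was higher (2.45, edgeR adjusted p = 0.0145) and *4CL1* was not called (0.59, edgeR adjusted p = 0.367). Beside the *PKS* genes, chalcone synthase *CHS* was higher (2.77, edgeR adjusted p = 0.0413). Beside the *TKPR* genes, dihydroflavonol reductase *DFR* was not called (-0.01 ± 1.63 SE, edgeR adjusted p = 0.998). Its rosette libraries were unequal, at 253 and 0 reads, against 396 and 289 reads in the inflorescences.

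Beside *CYP704B1*, its relative *CYP704A2* was lower in the inflorescence (-2.28, edgeR adjusted p = 0.0223). The reductases related to *MS2* were divided, with *CER4* (2.59) and *FAR4* (4.49) higher, *FAR5* lower (-0.95) and *FAR1* not called (4.24, edgeR adjusted p = 0.0616). None of the 5 transporters related to *ABCG26* was called, with log2 fold changes between -1.06 and 1.23. Of the sugar transporters beside *RPG1*, *SWEET1* (2.32) and *SWEET5* (5.15) were higher and the phloem transporters *SWEET11* (-2.80) and *SWEET12* (-1.62) lower. Against the apex 6 of 21 relatives were higher and 0 lower, beside 8.74% and 3.99% of all models. *SWEET5*, which had to differ here too, was among the 6. Between apex and rosette 0 were higher and 4 lower (*CER4*, *FAR5*, *SWEET11* and *SWEET12*), beside 2.11% and 6.03%.

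Models near the mean profile of the members were sought by Euclidean distance over the 5 *A. lyrata* libraries. Profiles were log2(scaled CPM + 1), with CPM scaled by TMM factors. The 5 nearest were AL1G55260 (no listed ortholog, distance 0.508), AL7G47720 (AT5G40730, 0.567), AL1G11740 (AT1G02470, 0.798), AL5G30670 (AT3G51300, 0.805) and AL5G44000 (AT3G62640, 0.807). AL1G55260 gave 27 and 18 reads in rosettes, 34 in the apex, and 3281 and 2756 in inflorescences. The members themselves lay farther from their mean, from 2.05 for *PKSB* to 6.80 for *TKPR1*, since the mean averages genes with and without vegetative reads. The distance rests on 5 libraries from 3 tissues, and replicates of a tissue are not independent points of the profile.

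In the 2 rosettes of *A. thaliana* the same 3 genes held most of the reads. *PKSA* had 122 and 67 reads (7.63 and 5.29 CPM), *TKPR1* 124 and 110 (7.76 and 8.68 CPM) and *TKPR2* 111 in each library (6.95 and 8.76 CPM). *CYP703A2*, *MS2* and *ABCG26* had 0 reads in both, *CYP704B1* had 0 and 1, and *PKSB* 3 in each. *ACOS5* had 0 and 4 reads and *RPG1* 2 and 10, with the higher count in replicate 2 each time. That library also had more reads of *TSM1* (63 against 0) and of floral markers such as *AP1* (33 against 3) and *SEP3* (59 against 9), though not of *LFY* (5 against 9). The 6 floral markers summed to 11.8 against 1.75 CPM, and the part of early floral tissue in it was not tested. The members summed to 22.7 and 24.2 CPM, beside 71.3 and 68.1 CPM in the *A. lyrata* rosettes, in tables counted on separate genomes between which no test was made. *TKPR1* overlaps the end of a gene on the opposite strand in the *A. thaliana* annotation, AT4G35410, so that its reads there are uncertain.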

How the data were processed

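Poly-A RNA of 7 libraries was sequenced by the study as single-end reads without strand information. The authors aligned reads with Bowtie and TopHat and deposited raw counts of reads per gene model, the only unit used here, since the scaled values beside them were not used. The counting tool is not given in the sources used here. The submitters' processing notes name FastQC, TopHat and TAIR10. Groups followed the labels. Counted reads for *A. lyrata* were 14440792 and 13340336 (rosette), 10556736 (apex) and 28347972 and 26047279 (inflorescence), and for *A. thaliana* 15981384 and 12667832.

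Tissues were compared in 1 fit of the 5 *A. lyrata* libraries with edgeR 4.0.16 (R 4.3.3): filterByExpr, TMM factors, glmQLFit and glmQLFTest, and Benjamini-Hochberg adjustment over 25465 models with a threshold of 0.05. The common coefficient of variation between replicates was 0.303, 2 residual degrees of freedom were left, and the SE is the log2 fold change over the square root of F. Intervals are exact (Clopper-Pearson, 95%). The code was tested on simulated data. Alternatives were RLE factors, library totals, no filter, DESeq2 1.42.0, a replicate block, 1 library left out, only rosettes and inflorescences, genomic span in place of exon length, and TMM-scaled totals. The 10 members are given in full, every gene of 3 lists may be named, the first markers of each marker list are named, and 5 models were chosen by profile. *KNAT1*, *SEP3* and the neighbouring models were named after their values were seen. The members and lists were chosen with earlier results of these data known. Sequences and figures were made with Biopython 1.88 and matplotlib 3.10.9.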

Additional observations from a re-analysis of the deposited data

How the results depend on the processing

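Tested values for single genes were taken as kept if their direction and side of the threshold stayed the same under an alternative. RPKM means and replicate ratios have no test, and were kept if they moved within their spread. By these rules 212 values were kept, 29 lost the call, 5 gained it, 8 moved by more than their spread and 1 changed direction. That one was *MS2* between apex and rosette, at a log2 fold change of -2.22 with all libraries, -3.10 without rosette replicate 2 and 1.42 without rosette replicate 1. With all libraries 4479 models were called higher and 4250 lower between inflorescence and rosette, 2226 and 1016 between inflorescence and apex, and 538 and 1535 between apex and rosette. With library totals in place of TMM factors, 9819 models were called higher and 2852 lower between inflorescence and rosette, 1802 and 1358 between inflorescence and apex, and 5472 and 1122 between apex and rosette, with 2 members higher in the last, while the median log2 fold change of all models moved to 0.68, -0.13 and 0.67. DESeq2 called 1817 models lower between inflorescence and apex, and 1588 higher and 3043 lower between apex and rosette. For the members DESeq2 called 9 higher between inflorescence and rosette and 9 between inflorescence and apex, where *RPG1* was lost at adjusted p = 0.182.

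Replicate numbers were not treated as pairs in the main fit. The difference between replicates correlated at r = 0.068 between rosette and inflorescence across 25465 models, which are not independent. Whether libraries of the same number were paired in the experiment cannot be told from this value. With the replicate block 964 models were called higher and 316 lower between inflorescence and apex, 0 higher, 0 lower and 0 members lower between apex and rosette, and 9 members higher between inflorescence and rosette. Leaving out 1 library gave 671 to 8014 models higher and 225 to 6398 lower between inflorescence and rosette, with 7 to 10 members higher. Between inflorescence and apex the ranges were 0 to 7107 higher and 0 to 5326 lower, with 0 to 10 members higher, and between apex and rosette 0 to 4913 higher and 0 to 5813 lower, with 0 to 1 member lower. The low counts came without an inflorescence library, where 2 tissues had 1 library each and were assumed to vary like the rosettes. With genomic span in place of exon length, *ACOS5* was at 43.6, *TKPR1* at 127, *TKPR2* at 64.8, *CYP703A2* at 44.0 and *ABCG26* at 23.0 RPKM in the inflorescences. With TMM-scaled totals the replicate ratio was 0.865 for *TKPR1*, 0.680 for *CYP704B1* and 0.641 for *MS2*. The causes were not tested. Depth limits statements on the genes at 0, for which the chosen floor of 3 reads per library served as the upper limit.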

Other observations

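Models next to the members, named after their values were seen, included some with reads only in the inflorescences. AL2G12620, with no listed ortholog, lies 1251 bp from *ACOS5* on the opposite strand and had 441 and 480 reads in the inflorescences and 0 in the rosettes and the apex. AL1G10240, the model with ortholog AT1G02040, begins 64 bp after *PKSA* on the same strand and had 80 and 124 reads in the inflorescences and 0 elsewhere in *A. lyrata*. Like *PKSA* it was higher in inflorescence replicate 2, at 5.53 against 3.28 RPKM. The other neighbour of *PKSA*, AL1G10220, was higher there too, at 3.08 against 2.47 RPKM. So were 60.2% of 21347 models with at least 100 reads. The part of *PKSA* transcripts in the reads of AL1G10240 was not tested. How many of all models had reads only in the inflorescences was not counted.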
